A study of Mus musculus with 15 samples.

Results

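The IL-1 family cytokines were followed in ear RNA of wild type (WT) mice and of mice whose *Socs3* gene was deleted in keratinocytes (*Socs3* cKO). The 9 members were *Il1a*, *Il1b*, *Il1rn*, *Il1f5*, *Il1f6*, *Il1f8*, *Il1f9*, *Il18* and *Il33*, found by exact symbol among the 21110 genes listed for each library. They were chosen by their FPKM values in these same 15 libraries, so the values are given as a description and without p-values. All mice were C57BL/6 and were taken at 2 or 10 weeks after birth. There were 4 WT and 4 *Socs3* cKO libraries at 2 weeks, and 3 WT and 4 *Socs3* cKO libraries at 10 weeks. The deletion is driven by the keratin 5 promoter, which is active in the basal keratinocytes of the epidermis. Cells of the ear that do not come from cells with an active keratin 5 promoter keep the gene. The labels name keratinocytes as the source and the ear as the tissue, and the RNA was extracted from ear specimens. Expression is given as FPKM, the fragments per kilobase of transcript scaled to the mapped reads of the library. It allows for length, so levels of different genes can be set side by side. The study's methods count mice and the labels give only a replicate number, so the spread between libraries is taken as that between these samples.

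IL-1 family cytokines are small proteins that bind paired receptors of the IL-1 receptor family and signal through MyD88 to NF-kB and MAP kinases. IL-1α and IL-1β are agonists of the IL-1 receptor and IL-1Ra is its antagonist. IL-36α, IL-36β and IL-36γ, the products of *Il1f6*, *Il1f8* and *Il1f9*, are agonists of a separate receptor, and the product of *Il1f5* is its antagonist. IL-18 and IL-33 have receptors of their own. Epithelial cells of the skin store several of these cytokines, and the IL-36 group is known for its part in psoriasis-like inflammation.

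In mm9 the IL-36 group lies on the plus strand of chromosome 2, in the order *Il1f8* (24008681 to 24016039), *Il1f9* (24041996 to 24049088), *Il1f6* (24070938 to 24081222) and *Il1f5* (24132474 to 24138946), and is followed by *Il1f10* (24146716 to 24149340) and *Il1rn* (24192373 to 24207014). *Il1a* (129125346 to 129135708) and *Il1b* (129190306 to 129196875) lie on the minus strand of the same chromosome, and both have 7 exons. *Il18* is on chromosome 9 (50383378 to 50389942) and *Il33* on chromosome 19 (29999604 to 30035194). The library kit does not mark strand. The antisense transcript *Gm14047* overlaps *Il1b* over 1243 bases, so reads there cannot be assigned to one of them, and its own FPKM was 0.0594 to 0.814 over the 15 libraries. *Gm14023* overlaps *Il1a* over 8217 bases and has no value of its own here.

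Promoters of 4 members are shown because their expression patterns differ, with *Il1b* high in 1 group and *Il1f8* high in *Socs3* cKO at both ages. Each run holds the 250 bases before the transcription start, in RefSeq's GRCm38.p6, at chr2:129309973-129310222 (minus strand) for *Il1a*, chr2:129371140-129371389 (minus strand) for *Il1b*, chr2:24152922-24153171 (plus strand) for *Il1f8* and chr2:24186226-24186475 (plus strand) for *Il1f9*. Capitals mark matches to an AP-1 motif (TGANTCA), a kB motif (GGG and TTCC with any 3 bases between), a STAT motif (TTCNNNGAA) or a TATA box (TATAAA), searched on both strands.
Il1a: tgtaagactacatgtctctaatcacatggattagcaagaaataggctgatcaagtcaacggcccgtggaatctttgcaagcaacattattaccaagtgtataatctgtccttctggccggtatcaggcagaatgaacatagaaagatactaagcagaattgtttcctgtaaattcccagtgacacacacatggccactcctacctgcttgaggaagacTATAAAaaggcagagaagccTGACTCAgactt
Il1b: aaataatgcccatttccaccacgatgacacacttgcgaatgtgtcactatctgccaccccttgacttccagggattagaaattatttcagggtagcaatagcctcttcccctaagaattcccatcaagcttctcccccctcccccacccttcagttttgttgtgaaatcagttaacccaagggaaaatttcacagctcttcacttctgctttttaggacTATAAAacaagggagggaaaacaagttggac
Il1f8: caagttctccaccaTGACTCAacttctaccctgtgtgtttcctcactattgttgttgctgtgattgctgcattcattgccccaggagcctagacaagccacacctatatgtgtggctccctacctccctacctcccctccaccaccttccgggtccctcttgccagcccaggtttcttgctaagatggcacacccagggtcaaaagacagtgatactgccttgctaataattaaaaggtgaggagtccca
Il1f9: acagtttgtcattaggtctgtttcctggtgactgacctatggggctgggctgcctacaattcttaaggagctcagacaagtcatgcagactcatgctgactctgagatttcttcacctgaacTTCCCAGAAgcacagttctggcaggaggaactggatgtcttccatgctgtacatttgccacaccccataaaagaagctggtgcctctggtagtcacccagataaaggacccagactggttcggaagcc
Counted with the start as position 0, the first base of the TATA box of *Il1a* was at -32 and that of its AP-1 match at -12. *Il1b* had a TATA box at -31 and no other match. *Il1f8* had an AP-1 match at -236, and *Il1f9* had a STAT match at -128. Windows of 300 bases, which run 50 bases past the start, were found for 8 of the 9 members, all but *Il1f6*. These 8 members have 12 windows, since some have several starts, and shares are of windows. The AP-1 motif was in 3 of the 12 (*Il1a*, *Il1rn* and *Il1f8*) and in 7.81% of all 32851 windows. The STAT motif was in 2 of the 12 (*Il1f5* and *Il1f9*) against 8.30% of all windows. The kB motif was in 3, all of them of *Il1rn*, against 5.56%. The windows of starts 2 and 3 of *Il1rn* overlap and share the same kB site, which is thus counted in both. The TATA box letters were in 6, of *Il1a*, *Il1b*, *Il1rn*, *Il18* and *Il33*, against 13.6%. Their positions differed. The match began at 14, past the start, in *Il1rn* (start 3) and at -175 in *Il18*, both on the other strand. In *Il33* it began at -203 for start 1 and at -29 for start 2. None of the matches overlapped another motif. A match is only a match of letters.

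Depth is not given with the values, and an estimate from the steps between low values was 11900000 to 17000000 mapped reads per library. Intervals for single values were not derived from it. *Socs3* itself could not check the labels, because its FPKM covers the whole gene and the ear holds cells that keep it. At 2 weeks its FPKM was 1.25, 9.32, 12.6 and 3.51 in *Socs3* cKO, which differed among themselves, and 9.71 to 10.3 in the WT. The reason for that spread was not tested. Its log2 fold change (log2FC) in *Socs3* cKO was -1.06 (SE 0.63, limma adjusted p = 0.18) at 2 weeks and 3.54 (SE 0.29, limma adjusted p = 7.2e-05) at 10 weeks, and the groups below are called as labelled. Genes at 0 numbered 1414 to 3176 in the WT libraries at 10 weeks and 4044 to 4423 in all others. The labels carry codes that run in separate ranges by group, and they do not say what the codes stand for. A batch that followed these codes could not be told apart from group. In *Socs3* cKO at 2 weeks, replicate 1 stood apart, with 979 summed FPKM of suprabasal keratinocyte markers against 4370 to 5642 in the other 3. Most of this gap was *Krt10*, at 432 against 2937 to 3898 FPKM. The suprabasal *Krt1* (109 against 510 to 901) and *Lor* (130 against 337 to 603) were low as well. *Dsc1* (93.2 against 78.8 to 118) was within the range of the others and *Dsg1a* (215 against 225 to 278) just below it. Of the basal markers, *Itgb4* (2.35 against 20.1 to 26.3), *Col17a1* (38.1 against 150 to 199), *Krt5* (838 against 1548 to 2735) and *Itga6* (14.7 against 22.9 to 44.1) were low there too. *Krt15* (770 against 778 to 909) was just below the others and *Krt14* (4321 against 2505 to 3981) above them. The reason was not tested. The defining markers of basal keratinocytes, fibroblasts, endothelial cells and macrophages were all above 1 FPKM in at least 1 library of every group, so these are RNA profiles of ear tissue. In such tissue, fewer cells of a type and less RNA per cell cannot be told apart.

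The family as a whole was higher in *Socs3* cKO at 2 weeks, and this was so for every member except *Il1b*. The FPKM of the 9 members summed to at 2 weeks 91.7 ± 13.2 in the WT (SD, n = 4) and 398 ± 67.5 in *Socs3* cKO (SD, n = 4). In 10-week mice the sum was 143 ± 69.2 in the WT (SD, n = 3) and 252 ± 59.2 in *Socs3* cKO (SD, n = 4). The sums did not overlap between genotypes at 2 weeks, where the WT reached 108 and *Socs3* cKO began at 305. At 10 weeks they did overlap, with 218 as the highest WT sum and 202 as the lowest in *Socs3* cKO. This overlap depends on the FPKM totals of the libraries, which ran from 436293 to 671904. As a share of all FPKM, the members at 10 weeks were at 0.01541% to 0.03565% in the WT and 0.03965% to 0.06812% in *Socs3* cKO, without overlap. The plot of FPKM by library shows the single genes.

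**Figure D1:**
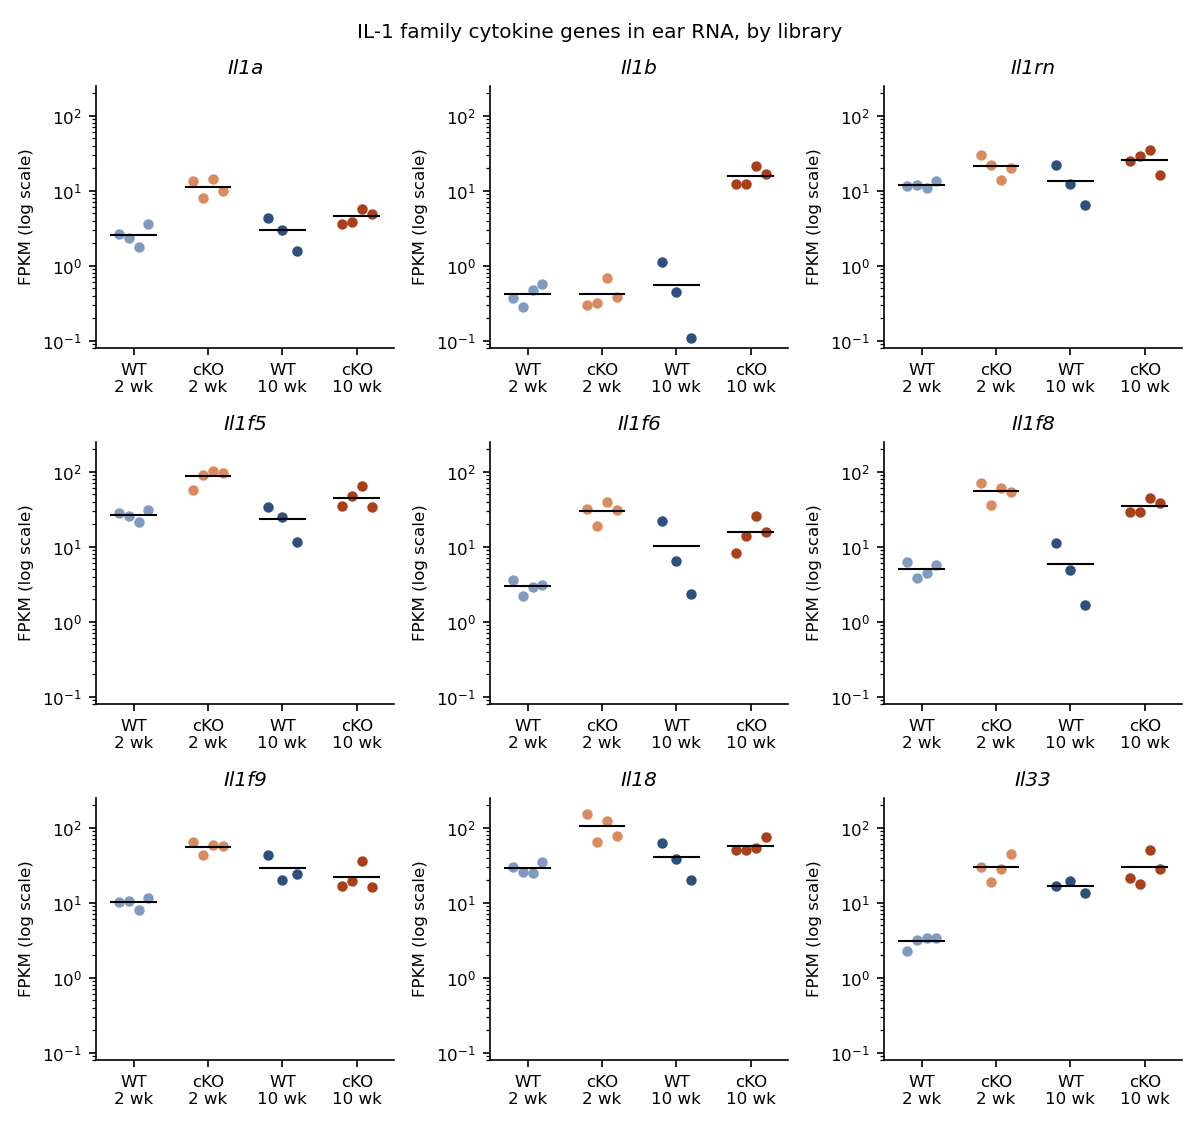
FPKM of the 9 IL-1 family cytokine genes in each library (points, log axis) and the mean of each group (line), for wild type (WT) and *Socs3* cKO at 2 and 10 weeks (wk). At 2 weeks all 4 *Socs3* cKO libraries lie above all 4 WT libraries in 8 genes, and *Il1b* is above 12 FPKM only in *Socs3* cKO at 10 weeks.

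At 2 weeks 8 of the 9 members had enough expression to be tested (3 or more of the libraries compared at 1 FPKM or above), and 7 of them were called higher in *Socs3* cKO. A gene was called at an adjusted p below 0.01 and a |log2FC| of at least 1, and 7.24% of all 13524 genes tested were called higher and 7.19% lower. In all 8 the groups did not overlap, with *Socs3* cKO higher, as for 22.9% of all genes tested. The median log2FC of the 8 was 2.29, where that of all genes tested was -0.21. At 10 weeks all 9 members were tested, 2 were called higher (*Il1b* and *Il1f8*) and none was called lower, where 12.5% of all 13105 genes tested were called higher. The same 2 were the only members whose groups did not overlap, against 31.2% of all genes that did not overlap with *Socs3* cKO higher. *Il1b* passed the filter at 10 weeks only through *Socs3* cKO. The median log2FC was 1.02 for the members and 0.31 for all genes at 10 weeks. Since these values chose the members, nothing is read from the counts.

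**Figure D2:**
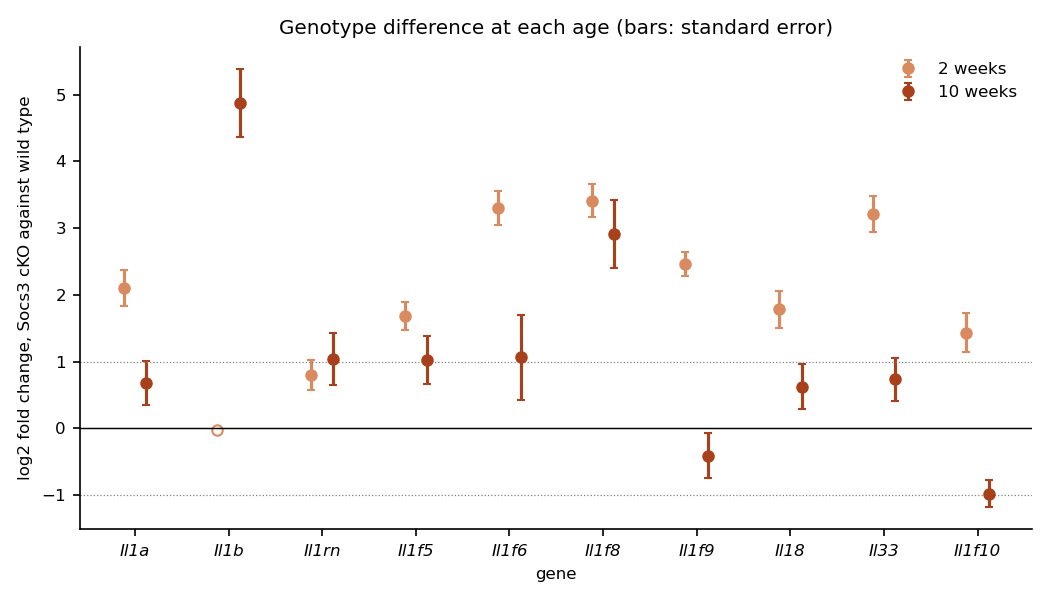
The log2FC of *Socs3* cKO against wild type at 2 weeks (light) and 10 weeks (dark) for the 9 members and for *Il1f10*, with bars for the standard error and dotted lines at the size needed for a call. *Il1b* at 2 weeks (open circle, no error) was below the filter, and *Il1b* and *Il1f8* lie highest at 10 weeks.

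*Il1b* and *Il1a*, the agonists of the IL-1 receptor, were high in different groups. *Il1b* encodes a cytokine made as an inactive precursor that inflammasome caspases cut. Its FPKM at 2 weeks was 0.368, 0.278, 0.470 and 0.573 in the WT and 0.298, 0.323, 0.689 and 0.387 in *Socs3* cKO. The 10-week WT libraries had 1.13, 0.441 and 0.109 and the *Socs3* cKO libraries 12.1, 12.3, 21.2 and 16.6. The 3 other groups overlapped at low levels, and every *Socs3* cKO library at 10 weeks lay far above them. The log2FC at 10 weeks was 4.88 (SE 0.51), and between the ages within *Socs3* cKO it was 4.92 (SE 0.43). Low values rest on few reads, an estimated 2 to 24 per library in the 3 low groups against 252 to 444 in *Socs3* cKO at 10 weeks. The fold therefore depends on the pseudocount, and with 1 in place of 0.1 the log2FC at 10 weeks was 3.43.

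*Il1a*, whose precursor is already active and is held in keratinocytes, showed the other order. Its FPKM at 2 weeks was 2.62, 2.32, 1.76 and 3.61 in the WT and 13.5, 7.92, 14.3 and 9.82 in *Socs3* cKO. At 10 weeks the WT had 4.31, 3.03 and 1.58 and *Socs3* cKO had 3.64, 3.84, 5.80 and 4.96. The groups did not overlap at 2 weeks and did at 10 weeks. The log2FC was 2.11 (SE 0.27) at 2 weeks and 0.68 (SE 0.33) at 10 weeks, and the latter was 0.30 without WT replicate 3. Within *Socs3* cKO all libraries at 10 weeks were below all libraries at 2 weeks, with a log2FC of -1.29 (SE 0.31). Of all genes tested, 6.79% were lower at 10 weeks without overlap in *Socs3* cKO, and 7.71% were higher, as *Il1b* was. In each *Socs3* cKO library at 2 weeks the FPKM of *Il1a* was 20.8 to 45.2 times that of *Il1b*, and at 10 weeks it was 0.273 to 0.313 times that of *Il1b*. In the WT the ratio was 3.74 to 8.34 at 2 weeks and 3.81 to 14.4 at 10 weeks, so *Il1b* was above *Il1a* only in *Socs3* cKO at 10 weeks.

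*Il1rn* encodes IL-1Ra, the antagonist that occupies the IL-1 receptor without signalling. Its FPKM at 2 weeks was 11.8, 11.8, 10.8 and 13.3 in the WT and 29.9, 22.2, 13.9 and 20.3 in *Socs3* cKO. The 10-week WT libraries had 22.3, 12.3 and 6.52 and the *Socs3* cKO libraries 24.7, 28.9, 34.5 and 16.2. The groups did not overlap at 2 weeks, by the narrow margin of 13.3 to 13.9, and overlapped at 10 weeks. *Il1rn* had the smallest log2FC of the 8 members tested at 2 weeks, 0.80 (SE 0.23), and its log2FC at 10 weeks was 1.04 (SE 0.39), or 0.60 without WT replicate 3. The antagonist was therefore set against its agonists within each library. The ratio of *Il1rn* to the sum of *Il1a* and *Il1b* was at 2 weeks 4.13 ± 0.742 in the WT (SD, n = 4) and 1.94 ± 0.744 in *Socs3* cKO (SD, n = 4). It was 3.83 ± 0.278 (SD, n = 3) and 1.35 ± 0.449 (SD, n = 4) at 10 weeks. The lowest WT ratio over both ages was 3.19 and the highest in *Socs3* cKO was 2.70, so the genotypes did not overlap at either age. In *Socs3* cKO the agonist with the higher FPKM was *Il1a* at 2 weeks and *Il1b* at 10 weeks.

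**Figure D3:**
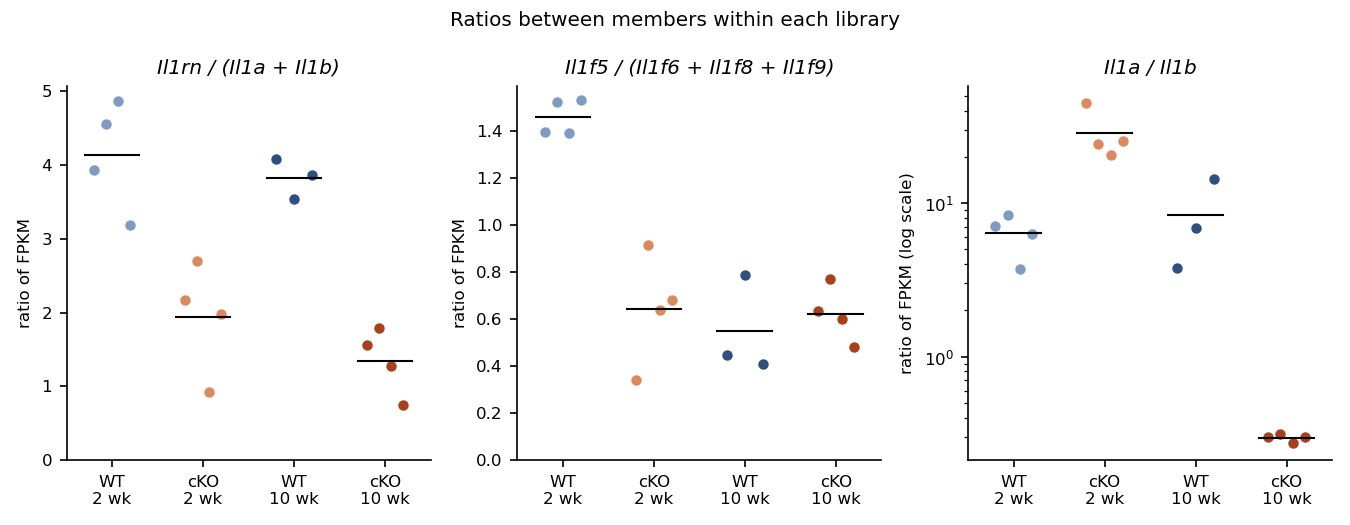
Ratios of FPKM within each library (points) and group means (lines) for IL-1Ra over the IL-1 agonists, the IL-36 antagonist over the 3 IL-36 agonists, and *Il1a* over *Il1b* (log axis), in wild type (WT) and *Socs3* cKO at 2 and 10 weeks (wk). The first ratio is at least 3.19 in every WT library and at most 2.70 in every *Socs3* cKO library, the second stands apart only in WT at 2 weeks, and the third is below 1 only in *Socs3* cKO at 10 weeks.

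The IL-36 agonists were the members with the largest differences at 2 weeks, together with *Il33*. *Il1f8*, which encodes IL-36β, had an FPKM at 2 weeks of 6.35, 3.86, 4.41 and 5.74 in the WT and 71.7, 36.5, 61.8 and 53.4 in *Socs3* cKO. At 10 weeks the WT had 11.4, 4.83 and 1.68 and *Socs3* cKO had 29.3, 28.9, 45.0 and 38.8. It was the only member whose groups did not overlap at both ages. Of all genes tested, 22.9% at 2 weeks and 31.2% at 10 weeks did not overlap with *Socs3* cKO higher. The share that did so at both ages was not counted. The log2FC of *Il1f8* was 3.41 (SE 0.25) at 2 weeks and 2.91 (SE 0.51) at 10 weeks, a difference between the ages of -0.50 (SE 0.62). Leaving out each library in turn gave 2.22 (without WT replicate 3) to 3.56 (without WT replicate 1) at 10 weeks.

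*Il1f9* encodes IL-36γ. Its FPKM was 10.2, 10.7, 7.92 and 11.7 in the WT and 64.7, 44.0, 59.6 and 56.6 in *Socs3* cKO at 2 weeks. The 10-week WT libraries had 43.6, 20.1 and 24.1 and the *Socs3* cKO libraries 16.8, 19.3, 36.0 and 16.2. The groups stood clearly apart at 2 weeks and overlapped at 10 weeks, where the mean was lower in *Socs3* cKO. The log2FC was 2.46 (SE 0.18) at 2 weeks and -0.41 (SE 0.33) at 10 weeks. The latter was -0.67 without *Socs3* cKO replicate 3 and -0.08 without WT replicate 1. With age the genotypes moved apart in sign, since the log2FC from 2 to 10 weeks was 1.46 (SE 0.29) in the WT and -1.41 (SE 0.27) in *Socs3* cKO, and in neither did the ages overlap. Of all 13937 genes tested for age, 6.18% were called higher in the WT and 1.53% lower in *Socs3* cKO, and 17.3% were higher in the WT without overlap. The call in *Socs3* cKO was lost with a replicate block, relative to keratinocyte markers, and without *Socs3* cKO replicate 3 or 4 at 2 weeks or replicate 1, 2 or 4 at 10 weeks, where *Il1b* alone was called with age.

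*Il1f6*, the gene of IL-36α, had the widest spread of the 9 on the log2 scale in the WT at 10 weeks. Its FPKM at 2 weeks was 3.66, 2.18, 2.94 and 3.06 in the WT and 32.1, 18.9, 39.8 and 31.1 in *Socs3* cKO. At 10 weeks the WT had 21.8, 6.46 and 2.35 and *Socs3* cKO had 8.22, 13.8, 25.8 and 15.9. The 2-week groups did not overlap, and the 10-week WT libraries spanned most of the *Socs3* cKO range. The log2FC was 3.30 (SE 0.25) at 2 weeks and 1.07 (SE 0.64) at 10 weeks. The latter was 0.30 without WT replicate 3 and 1.88 without WT replicate 1.

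*Il1f5* encodes the antagonist of the IL-36 receptor and was, with *Il18*, among the members at the highest level. Its FPKM at 2 weeks was 28.1, 25.5, 21.2 and 31.4 in the WT and 57.0, 90.8, 103 and 96.2 in *Socs3* cKO. The 10-week WT libraries had 34.2, 24.8 and 11.5 and the *Socs3* cKO libraries 34.5, 47.7, 63.9 and 34.0. Only at 2 weeks did the groups not overlap. The log2FC was 1.68 (SE 0.22) at 2 weeks and 1.02 (SE 0.36) at 10 weeks, and the latter was 0.58 without WT replicate 3. Relative to the summed FPKM of the 3 agonists, *Il1f5* stood at 2 weeks at 1.46 ± 0.0788 in the WT (SD, n = 4) and 0.643 ± 0.236 in *Socs3* cKO (SD, n = 4). The ratio was 0.547 ± 0.208 (SD, n = 3) and 0.621 ± 0.119 (SD, n = 4) at 10 weeks. All 4 WT libraries at 2 weeks held more antagonist than agonist FPKM, and no library of the other 3 groups did.

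The makeup of the IL-36 agonists also differed between groups. Their summed FPKM was at 2 weeks 18.2 ± 2.58 in the WT (SD, n = 4) and 143 ± 31.0 in *Socs3* cKO (SD, n = 4). At 10 weeks it was 45.5 ± 27.2 (SD, n = 3) and 73.5 ± 23.2 (SD, n = 4). *Il1f8* gave 23.1% to 31.5% of the sum in the WT and 36.7% to 42.55% in *Socs3* cKO at 2 weeks. At 10 weeks it gave 5.95% to 15.4% in the WT and 42.1% to 54.7% in *Socs3* cKO. *Il1f9* gave 50.3% to 63.9% in the WT at 2 weeks, where *Socs3* cKO had 37.0% to 44.3%. In the WT at 10 weeks it gave 56.8% to 85.7%, where *Socs3* cKO had 22.8% to 33.7%. The largest share was thus that of *Il1f9* in every WT library of both ages, and that of *Il1f8* in every *Socs3* cKO library at 10 weeks.

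*Il18* had the highest mean FPKM of the 9 members in all 4 groups. It encodes a cytokine that keratinocytes store as a precursor. The FPKM at 2 weeks was 30.4, 25.5, 24.7 and 35.3 in the WT and 153, 65.7, 123 and 78.5 in *Socs3* cKO. At 10 weeks the WT had 62.3, 38.6 and 20.2 and *Socs3* cKO had 50.6, 49.9, 53.6 and 75.2. The groups did not overlap at 2 weeks and overlapped at 10 weeks. The log2FC was 1.79 (SE 0.28) at 2 weeks and 0.63 (SE 0.33) at 10 weeks. *Il18* lost its call at 2 weeks without WT replicate 2 and relative to keratinocyte markers, which left 6 members called, and its 10-week log2FC was 0.20 without WT replicate 3 and 1.01 without WT replicate 1. In the order of mean levels, *Il1f5* was level with *Il18* in WT replicate 2 at 2 weeks and overlapped it in every group. *Il1b* was the lowest member in 3 groups, below the next gene in every library, and *Il1a* was the lowest in *Socs3* cKO at 10 weeks.

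*Il33* encodes a nuclear cytokine released when barrier cells are damaged. Its FPKM at 2 weeks was 2.27, 3.20, 3.43 and 3.44 in the WT and 29.8, 19.0, 27.9 and 44.9 in *Socs3* cKO. The 10-week WT libraries had 16.9, 19.3 and 13.4 and the *Socs3* cKO libraries 21.7, 17.8, 50.1 and 28.7. The WT at 2 weeks lay below all other libraries, and the other 3 groups overlapped in part. The log2FC was 3.21 (SE 0.27) at 2 weeks and 0.74 (SE 0.32) at 10 weeks, and the latter was 0.45 without *Socs3* cKO replicate 3. Between 2 and 10 weeks it was 2.39 (SE 0.33) in the WT and -0.09 (SE 0.31) in *Socs3* cKO. Both the genotype comparison at 2 weeks and the WT age comparison use the same 4 WT libraries at 2 weeks.

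The genotype difference at 10 weeks less that at 2 weeks ran from -2.87 (SE 0.40) for *Il1f9* to 4.90 (SE 0.64) for *Il1b*. It was -2.48 (SE 0.45) for *Il33*, -2.23 (SE 0.75) for *Il1f6*, -1.43 (SE 0.45) for *Il1a* and -1.16 (SE 0.47) for *Il18*. For *Il1f5* (-0.66, SE 0.45), *Il1f8* (-0.50, SE 0.62) and *Il1rn* (0.24, SE 0.49) it was within 2 standard errors of 0. Of all genes tested, 25.6% had an interaction at an adjusted p below 0.01.

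The scaling between libraries bears on the smaller differences at 10 weeks. The median of all genes was -0.21 at 2 weeks and 0.31 at 10 weeks, and 1638 of the 1957 genes called at 10 weeks were higher in *Socs3* cKO (83.7%). This share was 62.9% after median-of-ratios scaling and 54.3% after quantile normalization. Expressed relative to keratinocyte markers, an alternative chosen after seeing the data, 24.5% of the genes called at 10 weeks and 13.1% of those at 2 weeks were higher. On that scale the log2FC at 10 weeks was -0.09 for *Il1a*, -0.15 for *Il18*, -0.04 for *Il33* and -1.18 for *Il1f9*, while it was 0.27 for *Il1rn*, 0.24 for *Il1f5* and 0.29 for *Il1f6*. *Il1b* and *Il1f8* were called higher at 10 weeks under every alternative tried. *Il1b* passed the filter there only through *Socs3* cKO, and these values chose the members, so nothing is read from this.

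*Il1f10*, the gene of IL-38, lies between *Il1f5* and *Il1rn* and was not among the 9 members. The 2-week FPKM was 8.26, 7.24, 6.86 and 12.6 in the WT and 26.9, 13.8, 24.6 and 31.1 in *Socs3* cKO. At 10 weeks the WT had 32.7, 23.3 and 27.8 and *Socs3* cKO had 11.6, 16.6, 12.1 and 16.5. The groups did not overlap at either age, with *Socs3* cKO higher at 2 weeks and lower at 10 weeks. Of all genes tested, 22.9% did not overlap with *Socs3* cKO higher at 2 weeks. The share that did not overlap with *Socs3* cKO lower at 10 weeks is not given here. *Il1f10* rose at 2 weeks with a log2FC of 1.43 (SE 0.29, limma adjusted p = 0.00703). At 10 weeks its log2FC of -0.98 (SE 0.20, limma adjusted p = 0.00573) was just short of the size needed for a call, which it reached with median-of-ratios scaling (-1.24), quantile normalization (-1.28) and relative to keratinocyte markers (-1.75). The call at 2 weeks was lost relative to keratinocyte markers (limma adjusted p = 0.0258) and without WT replicate 1, 2 or 3 or *Socs3* cKO replicate 3 or 4. The 2 differences differed by -2.41 (SE 0.38, limma adjusted p = 0.000435 for the interaction). Like that of *Il1f9*, its WT level was higher at 10 than at 2 weeks, with a log2FC of 1.69 (SE 0.28, limma adjusted p = 0.000295).

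The receptors and adaptors of the family were followed as a list of 16 genes, of which 15 were tested at each age. At 2 weeks 2 rose in *Socs3* cKO, where 7.24% of all genes were called higher, none fell and 13 did not pass. The decoy receptor gene *Il1r2* went from 39.4 ± 3.70 to 149 ± 36.2 FPKM (each SD with n = 4), with a log2FC of 1.88 (SE 0.19, limma adjusted p = 0.000317). *Il18r1*, a chain of the IL-18 receptor, rose by a log2FC of 1.21 (SE 0.20, limma adjusted p = 0.0029) from a low 0.681 FPKM, and passed the filter only through *Socs3* cKO. It was not called with a pseudocount of 1 (0.69), with a replicate block (limma adjusted p = 0.0169) or without WT replicate 1, 2 or 3. At 10 weeks 7 rose and 1 fell, where 12.5% of all genes were called higher and 2.43% lower. The median log2FC of the list was 0.09 at 2 weeks and 1.05 at 10 weeks. Since the list was chosen with earlier results of these data known, nothing is read from its counts or medians.

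The gene of the IL-36 receptor, *Il1rl2*, had the largest rise of the list at 10 weeks. Its FPKM was 1.13 ± 1.06 in the WT (SD, n = 3) and 17.6 ± 4.54 in *Socs3* cKO (SD, n = 4), with a log2FC of 4.14 (SE 0.47, limma adjusted p = 0.000403). At 2 weeks, where the IL-36 agonists differed most, *Il1rl2* was at 16.5 ± 2.18 in the WT and 15.5 ± 4.94 in *Socs3* cKO (each SD with n = 4), with a log2FC of -0.13 (SE 0.24, limma adjusted p = 0.644). The WT at 10 weeks was thus the group at a low level. The interaction was 4.27 (SE 0.57, limma adjusted p = 0.00013). *Il1r1*, the signalling IL-1 receptor, rose at 10 weeks by 1.71 (SE 0.26, limma adjusted p = 0.00161), and *Irak3*, which dampens signalling from these receptors, by 1.72 (SE 0.29, limma adjusted p = 0.00254). Relative to keratinocyte markers 2 of the list were called at 10 weeks, and *Il1r1* (log2FC 0.93) and *Irak3* (0.95) were not. *Irak3* was not called without WT replicate 1 either.

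Genes of processing and release were a list of 22, including caspases, inflammasome sensors and proteases that cut the precursors. Of 17 tested at 2 weeks, 1 rose, against 7.24% of all genes, the cathepsin gene *Ctss*, with a log2FC of 1.40 (SE 0.22, limma adjusted p = 0.00237). Of 18 tested at 10 weeks, 5 rose and none fell, where 12.5% of all genes were called higher. The inflammasome sensor gene *Nlrp3* rose from 0.248 ± 0.0629 (SD, n = 3) to 2.00 ± 0.527 FPKM (SD, n = 4), with a log2FC of 2.58 (SE 0.31, limma adjusted p = 0.00053), and passed the filter only through *Socs3* cKO, so it had to differ to be tested. *Casp4* rose by 2.05 (SE 0.33, limma adjusted p = 0.002), and *Casp1*, whose product cuts the IL-1β and IL-18 precursors, by 1.63 (SE 0.31, limma adjusted p = 0.00396). The median log2FC of the list was -0.02 at 2 weeks and 0.71 at 10 weeks. This list too was chosen with earlier results of these data known, and nothing is read from its counts or medians. The call of *Nlrp3* stood on the scale relative to keratinocyte markers, while *Casp1* (adjusted p = 0.0438 by limma) and *Casp4* (adjusted p = 0.0112 by limma) lost theirs. *Casp1* also lost its call with a replicate block (adjusted p = 0.0104 by limma) and without WT replicate 3 or *Socs3* cKO replicate 3, and *Casp4* without WT replicate 3. *Ctss* at 2 weeks lost its call there too (adjusted p = 0.0433 by limma) and with a replicate block (adjusted p = 0.0135 by limma), and without WT replicate 1 or 2.

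Genes known to be induced by IL-1 family cytokines were a list of 21, many of which other inflammatory signals also induce. At 2 weeks 3 of 12 tested rose and none fell, and at 10 weeks 10 of 17 rose and none fell, where 7.24% and 12.5% of all genes were called higher. The 17 include genes not tested at 2 weeks, so the counts and medians of the ages are over different genes. The target list was chosen with earlier results of these data known, so nothing is read from its counts or medians. The genes that rose at 2 weeks were *S100a8*, *S100a9* and *Lcn2*, which encode antimicrobial proteins, and *Lcn2* went from 1.84 ± 0.521 to 14.7 ± 1.62 FPKM (SD, n = 4 each, log2FC 2.96, limma adjusted p = 7.33e-05). Led by *Cxcl1* (log2FC 7.93, SE 0.48, limma adjusted p = 1.23e-05), *Il6* (7.84, SE 0.52, limma adjusted p = 2.14e-05) and *Ptgs2* (6.10, SE 0.36, limma adjusted p = 1.22e-05), the genes that rose at 10 weeks encode a neutrophil chemokine, a cytokine and a prostaglandin synthase among others. Of the 10, *Cxcl1*, *Cxcl2*, *Il6* and *Ptgs2* had every WT library below 1 FPKM at 10 weeks and passed the filter only through *Socs3* cKO, so these 4 had to differ to be tested. The median log2FC of the list was 0.94 at 2 weeks and 3.07 at 10 weeks. The plot of pathway genes shows the ages side by side.

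**Figure D4:**
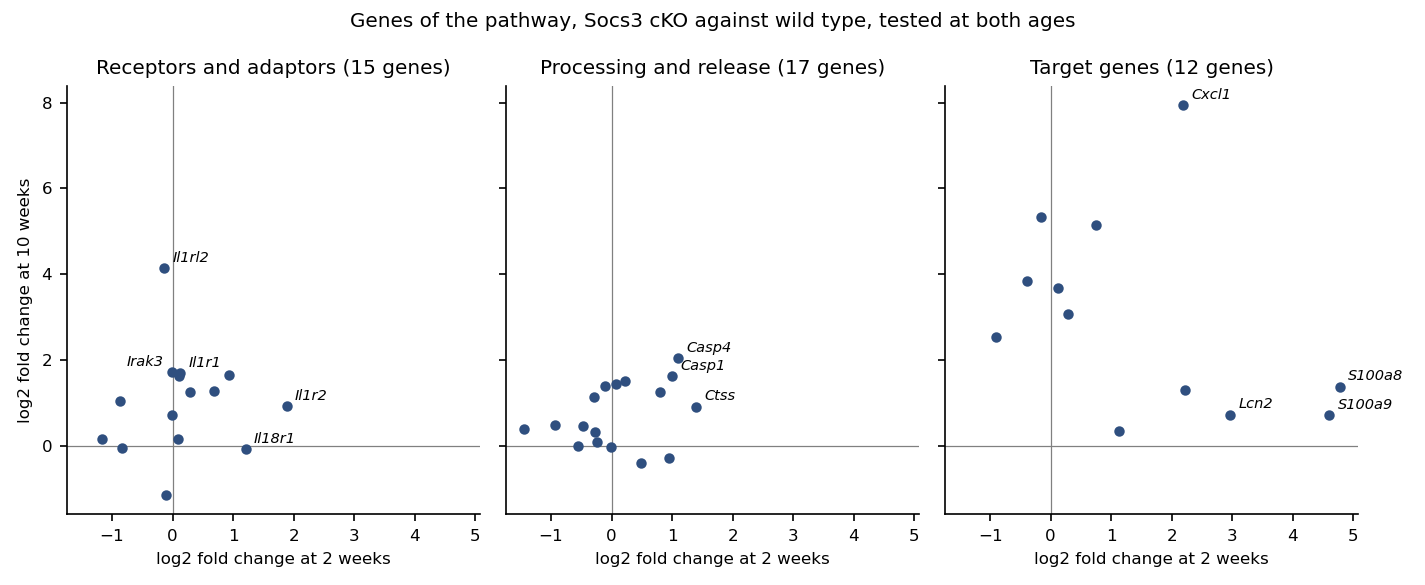
The log2FC of *Socs3* cKO against wild type at 2 weeks (x axis) and 10 weeks (y axis) for genes tested at both ages, as points in 3 panels, with the named genes labelled. *Il1rl2* and *Cxcl1* lie highest in their panels at 10 weeks, *S100a8* and *S100a9* lie farthest right, and *Nlrp3*, *Il6* and *Ptgs2* are absent because they were tested only at 10 weeks.

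Markers of other cell types moved with genotype as well. At 2 weeks the summed FPKM of 8 macrophage markers was 239 to 260 in the WT and 262 to 378 in *Socs3* cKO, and none of the 8 was called. The 5 markers of Langerhans cells and MHC class II summed to 643 to 786 and 838 to 941, with 2 called higher, the 5 mast cell markers to 456 to 486 and 549 to 1110, with 1 called higher, and the 5 T cell markers to 17.4 to 25.5 and 30.1 to 49.4, with 2 called higher. Fibroblast markers summed to 8228 to 9862 and 3549 to 5171, with 1 of 5 called higher and 2 lower, and endothelial markers to 57.1 to 65.1 and 43.4 to 52.9, with none called. Basal keratinocyte markers were at 5350 to 5634 and 5395 to 7813, with 1 of 6 called higher, and suprabasal ones at 4246 to 5265 and 979 to 5642, with 2 of 5 called higher. The part of these markers in the differences of the members was not tested. Without replicate 1 of *Socs3* cKO at 2 weeks, the log2FC at 2 weeks was 3.28 for *Il1f8*, 2.01 for *Il1a*, 1.58 for *Il18* and 3.20 for *Il33*, and the same 7 members were called.

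At 10 weeks, where *Il1b* was high in *Socs3* cKO, the Langerhans and MHC class II markers summed to 846 to 1013 in the WT and 1655 to 2581 in *Socs3* cKO, with 3 of 5 called higher. Macrophage markers summed to 297 to 562 and 442 to 668, with 4 of 8 called higher. Endothelial markers summed to 12.4 to 16.5 and 30.4 to 41.3, with 3 of 5 called higher. Basal keratinocyte markers summed to 4544 to 5741 and 6050 to 7355, with 1 of 6 called higher. Suprabasal ones summed to 2770 to 6625 and 2336 to 5268, with 1 of 5 called higher and 1 lower. Fibroblast markers summed to 3166 to 5257 and 4835 to 8844, with 1 of 5 called higher. Mast cell markers summed to 463.6 to 562.4 and 396.9 to 795.5, with 1 of 5 called higher. T cell markers summed to 35.3 to 37.9 and 33.4 to 51.8, with none called. Neutrophil markers summed over 8 genes to 8.26 to 12.6 in the WT and 4.13 to 10.3 in *Socs3* cKO, 3 of the 8 were tested and none was called. *Cxcr2* reached 6.55 FPKM in the WT and 5.20 FPKM in *Socs3* cKO, and *Elane* was at 0 in all 4 *Socs3* cKO libraries. The part of these markers in the level of *Il1b* was not tested.

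Over the 15 libraries the members with the most variable expression were *Il1b*, *Il1f8*, *Il1f6* and *Il33*. For each, the genes with the most similar pattern were found among 13937 genes by the root mean square difference of log2 values, each gene centred on its own mean. *Il1b* was closest to *Il24*, an IL-10 family cytokine gene (0.53), *Ptgs2* (0.73) and the chemokine gene *Ccl20* (0.74). *Il1f8* was closest to the integrin gene *Itgb8* (0.60), the hornerin gene *Hrnr* (0.61) and *Sdr16c6* (0.62). *Il1f6* was closest to *Rgn* (0.36), *Tmprss11f* (0.51) and *Gm11992* (0.54), and *Il33* to *Lcn2* (0.50), the amino acid transporter gene *Slc6a14* (0.50) and *Hsd11b1* (0.54). None of these 12 genes is a member.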

How the data were processed

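Single reads of 50 bases were aligned by the authors to mm9 (TopHat2 2.1.0 and Cufflinks are named in the submitters' processing notes) and the authors deposited 1 FPKM value per gene and library, scaled for length and mapped reads. Their edgeR test needs counts and was not repeated. Here log2(FPKM + 0.1) was tested by limma (3.58.1, R 4.3.3) with a trended prior variance. A gene was tested where 3 or more of the libraries compared had 1 FPKM or above. Each age was fitted alone, and age and interaction contrasts on all 4 groups. Tests were 2-sided with Benjamini-Hochberg adjustment over all genes tested. Genes were called at an adjusted p below 0.01 and a |log2FC| of at least 1, the thresholds of the study. Tested on simulated data, the step recovered 64.8% of planted |log2FC| of 2 at 2 weeks (12013 genes) and 83.7% at 10 weeks (10914 genes). The simulation used normal noise on the log2 scale and only genes with a WT mean of 2 FPKM or above. It does not cover genes that are lower in the WT, such as *Il1b*.

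Groups and replicate numbers came from the labels. The study states more wild type mice, which were not analysed here. No pair of libraries shared more than 1 identical value above 0. Gene positions are those of GENCODE on mm9, which holds 97.3% of the symbols. Sequences came from RefSeq. Depth was estimated from the steps between low FPKM values, and the precision of low genes is limited by it.

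The members and gene lists were chosen with earlier results of these data known, and so were the tests. Named were all members, *Il1f10*, *Socs3*, the 3 genes per list with the largest |log2FC| among those called at each age, and the 3 genes closest to each of the 4 most variable members. Alternatives were pseudocounts of 1 and 0.01, no filter and a stricter filter, median-of-ratios scaling, quantile normalization, a constant prior variance, a replicate block, all 4 groups in one fit and leaving out each library. Calculations outside limma used Python 3.11.15, numpy 2.4.6, pandas 2.3.3 and matplotlib 3.10.9.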

Additional observations from a re-analysis of the deposited data

Results flagged for a closer look

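In groups of 4 libraries, 72 were checked for a library far from the others, and chance flags about 1 in 20 of them. There were 5. *Il1f9* replicate 3 was the highest in *Socs3* cKO at 10 weeks, with a gap of 0.843 of the range. *Il18* replicate 4 was the highest in the same group (0.853). The share of all FPKM held by the 9 members was highest in replicate 3 of that group, at 0.0681% (gap 0.845). *Il33* took 11.5% of the FPKM of the 9 members in replicate 4 of *Socs3* cKO at 2 weeks (gap 0.929). *Socs3* was lowest in WT replicate 1 at 2 weeks (gap 0.871), where the 4 values lay between 9.71 and 10.3.

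The genotype difference changed with age for 11 named genes that are no members (interaction in limma, adjusted p below 0.01). The difference at 10 weeks less that at 2 weeks was 6.62 for *Il6*, 5.75 for *Cxcl1*, 5.26 for *Ptgs2*, 4.60 for *Socs3*, 4.27 for *Il1rl2*, 3.06 for *Nlrp3*, 1.73 for *Irak3* and 1.58 for *Il1r1*. It was -2.41 for *Il1f10*, -2.22 for *Lcn2* and -1.28 for *Il18r1*. Relative to keratinocyte markers the interaction was not called for *Il1r1* (limma adjusted p = 0.16), *Irak3* (limma adjusted p = 0.0753) and *Il18r1* (limma adjusted p = 0.0111). It was not called for *Irak3* after quantile normalization (limma adjusted p = 0.0179), or for *Il18r1* with a replicate block (limma adjusted p = 0.0142). *Il18r1* also lost it without any 1 WT library at 2 weeks, WT replicate 2 or 3 at 10 weeks, *Socs3* cKO replicate 4 at 2 weeks or *Socs3* cKO replicate 2, 3 or 4 at 10 weeks. Among all genes tested, 25.6% had such an interaction. Apart from *Il1f10* and *Socs3*, the 11 were named for a large difference at 1 of the ages in these same libraries. That choice favours a change with age, so nothing is read from their number. *Il6*, *Ptgs2* and *Nlrp3* were below the filter at 2 weeks, so their interaction rests on low values there.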

How the results depend on the processing

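Of 332 values of members under other settings, 313 moved by less than the spread between replicates and 19 moved more, and no called value changed sign. Members called at 2 weeks numbered 6 to 7 with each library left out (6 without WT replicate 2), and at 10 weeks 2 in each case. The labels give the groups the same replicate numbers. The deviations of same-numbered libraries had r across genes of -0.04 to 0.14 at 2 weeks and -0.21 to 0.07 at 10 weeks. Pairs with different numbers had -0.14 to 0.08 and -0.24 to 0.17. With so few libraries this cannot decide whether the numbers pair them, and the main fits took them as unpaired. With the replicate block, 751 genes were called at 2 weeks against 1951 and 1899 at 10 weeks against 1957, 1 receptor gene and 0 processing genes were called at 2 weeks, and 1 member was called with age in *Socs3* cKO. With all 4 groups in one fit, 3300 genes and 6 target genes were called at 2 weeks. Quantile normalization gave 4 receptor and 6 target genes at 2 weeks and 5 receptor genes at 10 weeks, a pseudocount of 1 gave 1 receptor gene at 2 weeks, and no filter and median-of-ratios scaling each gave 2 processing genes at 2 weeks. Relative to keratinocyte markers, chosen after seeing the data, 0 processing genes were called at 2 weeks, 2 receptor genes and 1 processing gene at 10 weeks, 296 genes and 1 member with age in *Socs3* cKO, and 1207 genes for the interaction. The cause of these changes was not tested. With each library left out, the genes called ranged from 859 (without WT replicate 2) to 3348 (without *Socs3* cKO replicate 2) at 2 weeks, from 745 (without WT replicate 3) to 2665 (without WT replicate 2) at 10 weeks, from 2205 to 3826 with age in the WT, from 300.0 to 700.0 with age in *Socs3* cKO and from 1994 to 5117 for the interaction. Members called with age ranged from 2 to 3 in the WT and from 1 to 3 in *Socs3* cKO. At 2 weeks the receptor genes called were 1 to 4, the processing genes 0 to 4 and the target genes 3 to 4. At 10 weeks the receptor genes called were 5 to 7, the processing genes 2 to 7 and the target genes 10 in each case. Depth limits *Il1b* in the 3 low groups, where an estimated 2 to 24 reads lie behind a value.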
